A study of Mus musculus with 6 samples.

Results

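Small nucleolar RNAs and the genes that host them were compared in mouse pre-B leukaemia cells that had received either a tamoxifen-activated Cre recombinase or the tamoxifen-binding domain alone. The members are the probe sets of the array that carry exactly 1 gene symbol, where that symbol starts with Snord, Snora, Scarna or Snhg or is Gas5. The rule gave 72 of 35556 probe sets: 33 for box C/D small nucleolar RNAs (Snord), 23 for box H/ACA small nucleolar RNAs (Snora), 4 for small Cajal body RNAs (Scarna) and 12 for host genes (Gas5 and 5 Snhg genes). Scarna17, Snora30 and Snord118 each had a second probe set with the same values on every array, which was counted once. That left 69 distinct probe sets of 60 genes, of which 57 probe sets (54 genes) were small RNAs.

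All cells were C57BL/6 pre-B cells in which the oncogenic kinase BCR-ABL1 drives an acute lymphoblastic leukaemia (Ph+ ALL), and all were Inpp5d fl/fl, so the controls carried the floxed alleles too. Inpp5d encodes SHIP1, a lipid phosphatase that opposes PI3K signalling. One group, CRE, was transduced with PMIP-CRE-ERT2 and the other, ERT, with PMIP-ERT2, and both received 4-hydroxytamoxifen at 0.5 µM. Total RNA came from puromycin-resistant cells after 2 days and was hybridised to 3 arrays per group. The labels name neither a separate culture nor a separate animal for each array, so every p-value here is against a spread between arrays that could be technical. There was no group with Cre and without floxed alleles, so Cre activity and loss of Inpp5d cannot be told apart.

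Small nucleolar RNAs guide the chemical modification of other RNAs in the nucleolus. Box C/D RNAs sit in a complex with the methyltransferase fibrillarin and direct ribose methylation, mostly of ribosomal RNA. Box H/ACA RNAs sit with the pseudouridine synthase dyskerin and direct pseudouridylation, and the Cajal body RNAs guide the same reactions on spliceosomal RNAs. Most mammalian members of these families are cut out of introns, often those of ribosomal protein genes and of non-coding host genes such as Gas5 and the Snhg genes, so a spliced host RNA and its small RNA start from 1 transcript but decay separately.

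Values are log2 signals as deposited, and every difference below is the CRE mean minus the ERT mean on that log2 scale, ± its standard error (SE) in limma. Brightness was compared between probe sets only to pick the brightest and to leave out dim ones, and is not read as an amount of RNA. The labels name an RNeasy kit for the extraction, and such silica columns recover short RNAs poorly in their usual form. Whether a small RNA probe set measured the mature RNA or longer precursors therefore cannot be told apart here, and in bulk RNA fewer cells with a transcript and less of it per cell cannot be told apart either. The targeted gene did not check the labels: Inpp5d read 13.20, 13.21 and 13.17 on the ERT arrays and 13.37, 13.34 and 13.34 on the arrays labelled CRE, and the exons read by its probe set are not known here. Directions below are accordingly those of the arrays labelled CRE. Of 12 pre-B markers 11 were measured, with mean log2 values from 9.42 to 14.33. The summed linear signal of 6 myeloid markers was 1397 to 1474 on the ERT arrays and 1895 to 2020 on the arrays labelled CRE, with Lyz2 (0.79 ± 0.113, SE) the widest apart. That of 6 T and NK cell markers was 945 to 977 against 986 to 1106, that of 4 stromal markers 1530 to 1611 against 1639 to 1921, and of 4 erythroid markers only Epor was measured. The median log2 value of the whole array was 8.21, 8.19 and 8.23 on the ERT arrays and 8.37, 8.32 and 8.24 on the arrays labelled CRE. After centring on these medians the T and NK cell markers differed by -0.10 (Cd3d) to 0.14 (Cd3g). The stromal markers then differed by 0.023 (Col1a1) to 0.10 (Col1a2). Lyz2 differed by 0.69, while the other myeloid markers differed by only -0.10 (Elane) to 0.095 (Mpo). The part of cells with these markers in the differences below was not tested.

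Across the small RNAs the median box C/D difference was below 0, and the host gene median depended on how repeated probe sets were counted. The median difference was -0.17 over 32 distinct box C/D probe sets (24 below 0), -0.028 over 22 box H/ACA probe sets (12 below 0) and -0.023 over 12 host gene probe sets (7 below 0), beside 0.047 over all 35080 distinct probe sets of the array. With 1 probe set a gene the medians were -0.17 over 31 box C/D genes, 0.0034 over 20 box H/ACA genes and -0.099 over 6 host genes. Over all 54 small RNA genes that median was -0.099 too. The 3 distinct Cajal body probe sets had differences of 0.67 (Scarna13), 0.40 (Scarna8) and -0.29 (Scarna17). The box C/D median was -0.096 without array CRE 2 and -0.25 without array ERT 2. Centring each array on its median moved the median of all probe sets to -0.055, that of the box C/D probe sets to -0.27 and that of the host genes to -0.13, and the box H/ACA and host medians turned to just above 0 after quantile normalization (0.00071 and 0.01). These medians describe the families and were not tested.

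No member passed limma's test over the whole table. With Benjamini-Hochberg adjustment over 35080 distinct probe sets, 20 passed an adjusted p threshold of 0.05 (0.0570% of those tested; 8 or 0.0228% higher and 12 or 0.0342% lower), and 0 of 57 small RNA and 0 of 12 host gene probe sets were among them. The split of the 20 depended on scaling, with 15 higher and 36 lower after quantile normalization and 11 higher and 55 lower after centring. The smallest adjusted p of a member by limma was 0.134, for Scarna13. At an unadjusted p under 0.05, 17 of 57 small RNA probe sets were counted (14 lower, 3 higher), or 29.8% beside 19.9% of all probe sets (7.30% lower, 12.6% higher), and 0 of 12 host gene probe sets were. The 3 arrays of one group lay wholly outside those of the other for 23 of 57 small RNA probe sets, 16 lower and 7 higher, where 28.5% of all probe sets did so (10.9% lower, 17.6% higher). Of the 32 box C/D probe sets 11 were separated with CRE lower and 3 with CRE higher; of the 22 box H/ACA probe sets 5 were lower and 3 higher.

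A second fit, not planned, was added after those counts were known, because the table held many dim and unnamed probe sets and few passed. It kept 1 probe set per gene, the brightest, and left out the dimmest 25% of genes, so that 14953 genes were tested, 58 of them members. In this fit 1140 genes passed (7.62%, 617 or 4.13% lower and 523 or 3.50% higher), and 6 of 52 small RNA genes did, 5 lower and 1 higher, while 0 of 6 host genes passed. After centring the split over all genes was 223 higher and 2797 lower (18.7% lower). There 24 small RNA genes were lower and 3 higher, and 3 of 6 host genes passed, all lower. The 6 small RNA genes that passed without centring included the box C/D RNAs Snord118, Snord52, Snord57, Snord49a and Snord35a, all lower on the arrays labelled CRE. The other was the Cajal body RNA Scarna13, which was higher. Of 30 box C/D genes 5 passed (16.7%), and of 19 box H/ACA genes 0 did. These calls rested on the set of arrays. The number of small RNA genes that passed was 0 without ERT 1, 1 without ERT 2 (Snord118), 1 without ERT 3 (Scarna13), 2 without CRE 1 (Scarna13 and Snord15a), 3 without CRE 2 (Scarna13, Snord49a and Snord52) and 16 without CRE 3. Those 16 were 7 higher and 9 lower (30.8% of 52), where 20.3% of all genes passed without CRE 3 (1696 higher and 1346 lower).

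**Figure D1:**
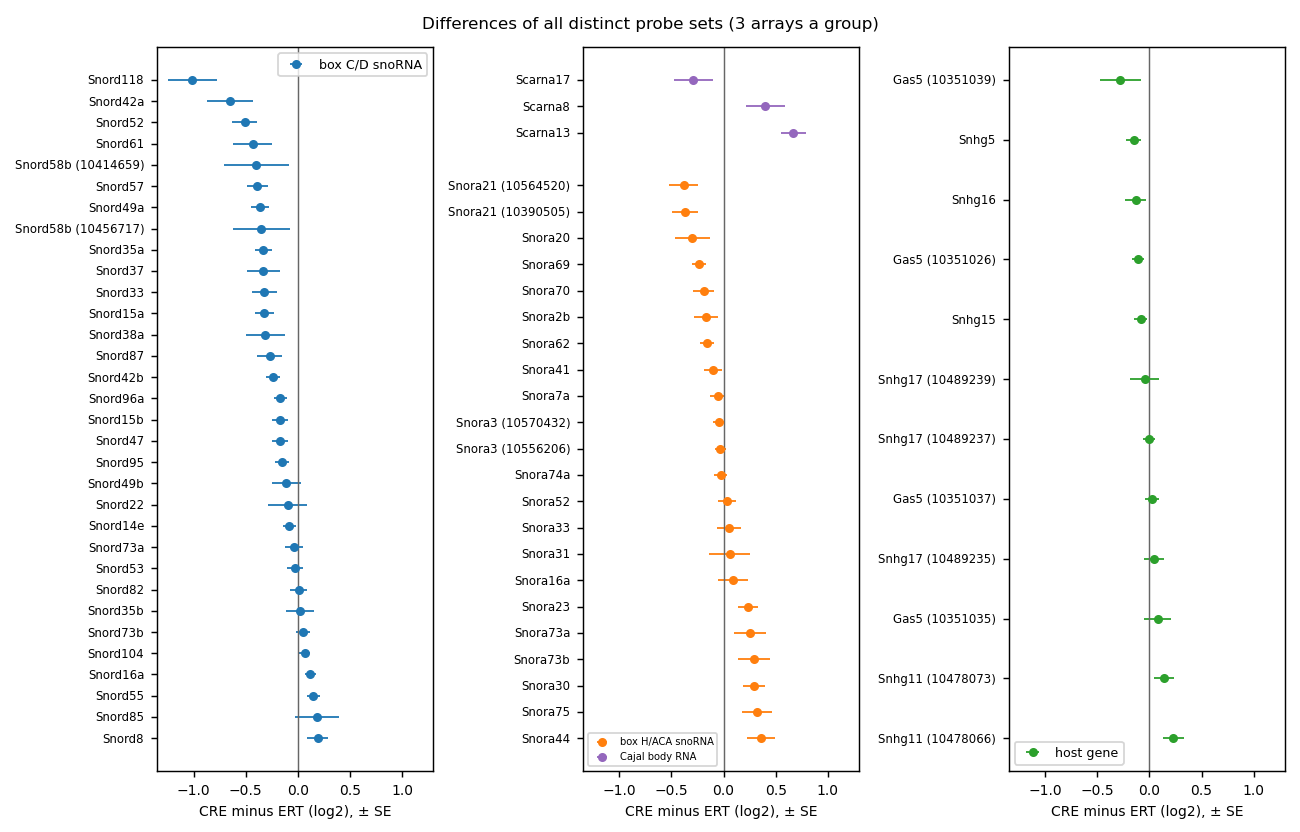
Difference between the arrays labelled CRE and the ERT arrays for every distinct probe set (x axis, log2, 3 arrays per group; points are differences of means and bars are standard errors of the fit), with box C/D RNAs on the left, box H/ACA and Cajal body RNAs in the middle and host genes on the right. The box C/D points run from -1.01 (Snord118) to 0.19 (Snord8) with 24 of 32 left of 0, and the host gene points lie between -0.28 and 0.23.

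Snord118, also called U8, is needed for the processing of the large-subunit ribosomal RNAs and is transcribed from its own gene. Its log2 value was 9.23, 8.58 and 9.23 on the ERT arrays and 8.35, 7.69 and 7.98 on the arrays labelled CRE. The lowest ERT array lay above the highest of the arrays labelled CRE, and array 2 was the lowest of each group. The difference was -1.01 ± 0.238 (SE, n = 3 per group), or 2.01-fold lower, with a 95% interval from -1.59 to -0.43; limma's adjusted p was 0.160 over the whole table and 0.0310 in the fit of 14953 genes. It was the widest difference of any member.

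The other 4 box C/D RNAs that passed the second fit are methylation guides for ribosomal or spliceosomal RNA. Snord52 read 9.00, 9.04 and 8.98 on the ERT arrays and 8.54, 8.23 and 8.70 on the arrays labelled CRE. The ERT arrays were close together, and all 3 arrays labelled CRE lay under them. Its difference was -0.51 ± 0.119 (adjusted p = 0.0308 by limma over 14953 genes and 0.160 over the whole table). Snord57, which lies in an intron of Nop56, read 12.64, 12.47 and 12.65 against 12.12, 12.09 and 12.39, a difference of -0.39 ± 0.101 (limma adjusted p = 0.0402 and 0.179 in the same order). Its groups did not overlap, with CRE 3 nearest to the ERT arrays. Snord49a read 10.08, 10.07 and 9.99 against 9.73, 9.51 and 9.82, and differed by -0.36 ± 0.0863 (limma adjusted p = 0.0340 and 0.161). Snord35a, inside the ribosomal protein gene Rpl13a, read 11.08, 10.93 and 11.09 against 10.76, 10.57 and 10.79, and differed by -0.33 ± 0.0817 (limma adjusted p = 0.0377 and 0.169). For both, CRE 2 was the lowest array of all 6 and the groups were apart.

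Snord42a, named after its value was seen, had the second widest difference among the box C/D RNAs and missed the threshold in both fits. It read 9.53, 9.05 and 9.34 on the ERT arrays and 8.92, 8.22 and 8.84 on the arrays labelled CRE, -0.65 ± 0.216 (limma adjusted p = 0.210 over the whole table and 0.0658 over 14953 genes). Among the other box C/D probe sets the 4 brightest differed little. Snord49b read 12.80, 12.52 and 13.08 against 12.77, 12.66 and 12.64, with overlapping groups (-0.11 ± 0.141). Snord104 read 12.62, 12.51 and 12.64 against 12.65, 12.66 and 12.65 (0.066 ± 0.0525), a separation of a few hundredths that turned to -0.037 after centring. The Rpl4 intron RNA Snord16a read 12.42, 12.45 and 12.41 against 12.61, 12.55 and 12.47 (0.12 ± 0.0534), with CRE higher on every array. Snord53 read 12.43, 12.40 and 12.55 against 12.33, 12.43 and 12.56 (-0.023 ± 0.0774), with overlap. Snord14e, 1 of several copies in the introns of the chaperone gene Hspa8, read 10.71, 10.57 and 10.71 against 10.63, 10.52 and 10.60 (-0.082 ± 0.0617). None of these passed either fit. The remaining box C/D probe sets ranged from -0.43 (Snord61) to 0.19 (Snord8).

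**Figure D2:**
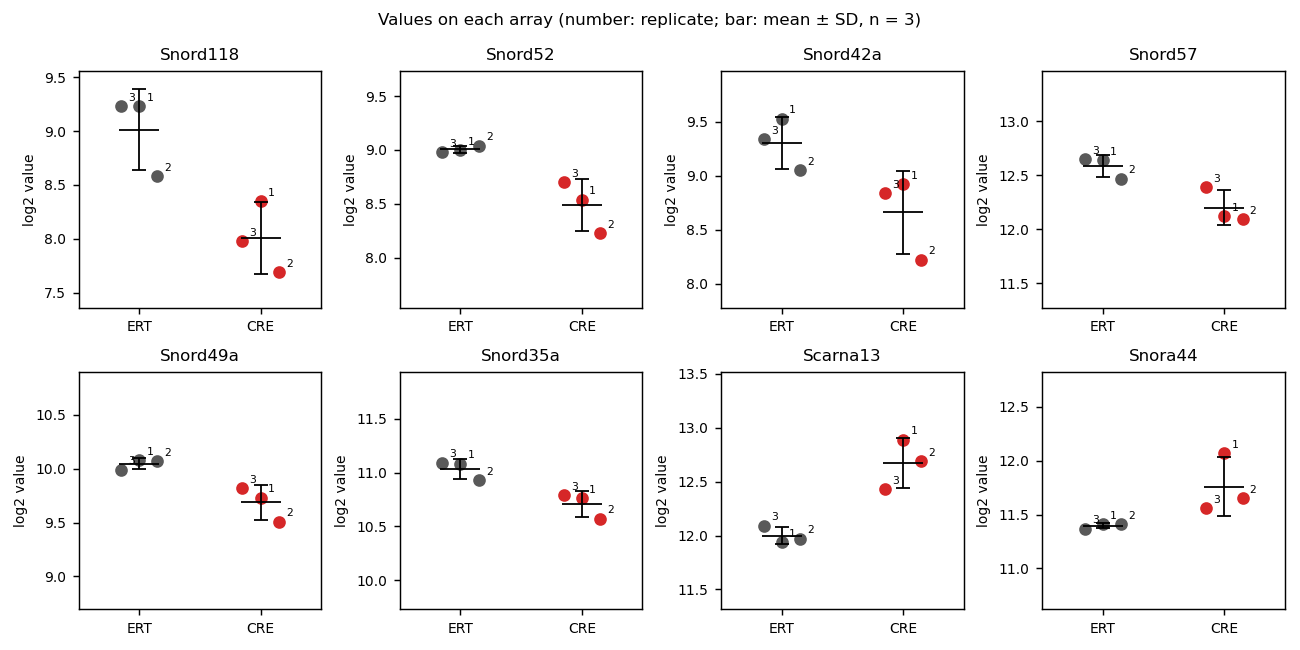
Log2 signal on each array (y axis) for 8 small RNAs, with ERT arrays and arrays labelled CRE marked separately replicates numbered, and black bars for the mean ± SD of each group (n = 3). The 6 that passed the second fit are shown with Snord42a and Snora44, which were picked after their values were seen; Scarna13 is 12.00 on average on the ERT arrays and 12.67 on the arrays labelled CRE, and Snord118 is 9.01 and 8.00.

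The box H/ACA RNAs went both ways, and none passed either fit. Snora52 read 13.89, 13.69 and 13.88 on the ERT arrays and 13.97, 13.82 and 13.77 on the arrays labelled CRE (0.033 ± 0.0836), with overlap. The Snora73 RNAs, also called U17, act in cleavage of the small-subunit ribosomal RNA precursor rather than as guides. Snora73b read 12.22, 11.84 and 12.22 against 12.64, 12.23 and 12.27 (0.29 ± 0.152), and Snora73a read 12.13, 11.80 and 12.11 against 12.55, 12.10 and 12.13 (0.25 ± 0.152). Both stand side by side inside Snhg3, and on both ERT 2 was the lowest array and CRE 1 the highest. Snora23 read 11.90, 12.10 and 11.96 against 12.33, 12.26 and 12.05 (0.23 ± 0.0950), with CRE 3 below ERT 2. The widest higher value of the family was Snora44 (0.36 ± 0.135), which read 11.41, 11.41 and 11.37 against 12.07, 11.65 and 11.56 and was named after it was seen. The widest lower values were those of the Snora21 probe sets, -0.38 ± 0.139 and -0.37 ± 0.129, which share a symbol and are not independent; on both the groups did not overlap, and the nearest to the second fit's threshold was Snora69 (-0.24 ± 0.0672, limma adjusted p = 0.0510).

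Scarna13 (U93) was the one small RNA that was higher on the arrays labelled CRE and passed the second fit. It read 11.94, 11.97 and 12.09 on the ERT arrays and 12.89, 12.69 and 12.43 on the arrays labelled CRE. All 3 arrays labelled CRE lay above the ERT arrays, CRE 1 farthest. The difference was 0.67 ± 0.122, or 1.59-fold, with a 95% interval from 0.37 to 0.97 (adjusted p = 0.0157 by limma over 14953 genes and 0.134 over the whole table). Scarna8 read 8.77, 8.76 and 9.16 against 9.64, 9.24 and 9.03 (0.40 ± 0.186), so that CRE 3 fell inside the range of the ERT arrays. Scarna17 read 12.22, 11.89 and 12.08 against 11.40, 11.82 and 12.11 (-0.29 ± 0.186), with a spread of 0.354 (SD) among the arrays labelled CRE, from CRE 1 at the low end to CRE 3 at the high end.

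The host genes were measured by 12 probe sets, none of which passed either fit. Gas5, the growth arrest-specific non-coding RNA whose introns hold a cluster of box C/D RNAs, had 4. Probe set 10351026, the only 1 paired with several transcript records, read 12.34, 12.25 and 12.32 on the ERT arrays and 12.23, 12.22 and 12.11 on the arrays labelled CRE. This was the 1 of 12 host probe sets whose groups did not overlap (8.33%, beside 28.5% of all probe sets), with a difference of -0.11 ± 0.0561 (limma adjusted p = 0.305 over the whole table). Probe set 10351035 read 10.26, 9.88 and 10.02 against 10.32, 10.02 and 10.06 (0.079 ± 0.126), and probe set 10351037 read 11.99, 11.87 and 12.07 against 11.98, 12.01 and 12.01 (0.025 ± 0.0639). Probe set 10351039 read 9.39, 9.24 and 9.15 against 9.34, 8.56 and 9.03 (-0.28 ± 0.195), where CRE 2 was far below the rest. The 4 Gas5 probe sets thus differed in sign, and which exons or introns each covers is not known here. Snord47, the member that lies inside Gas5, had a difference of -0.17 ± 0.0753.

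The 5 Snhg genes also encode spliced RNAs of which most are known chiefly as carriers of small RNAs. Snhg5 read 11.22, 11.03 and 11.14 against 10.95, 10.92 and 11.07 (-0.15 ± 0.0711), with CRE 3 inside the ERT range. Snhg16 read 9.47, 9.26 and 9.54 against 9.46, 9.21 and 9.23 (-0.13 ± 0.102), and Snhg15 read 11.06, 11.00 and 11.06 against 11.06, 10.91 and 10.90 (-0.084 ± 0.0615). In both, CRE 1 lay within the range of the ERT arrays. Snhg11 probe sets 10478066 and 10478073 read 7.63, 7.43 and 7.79 against 7.82, 7.96 and 7.77 (0.23 ± 0.104), and 8.09, 7.85 and 8.12 against 8.18, 8.25 and 8.04 (0.14 ± 0.0950). The 3 Snhg17 probe sets were near 0: 10489235 read 10.16, 9.82 and 10.08 against 10.12, 10.02 and 10.07 (0.048 ± 0.0965). Probe set 10489237 read 10.59, 10.50 and 10.61 against 10.58, 10.62 and 10.51, and probe set 10489239 read 11.22, 10.69 and 11.09 against 11.00, 10.93 and 10.94. For Snhg17 the ERT arrays spread more widely than the arrays labelled CRE on the first and last of these probe sets, with ERT 2 the lowest. The 95% intervals give the differences that could have been missed. That of Gas5 probe set 10351026 ran from -0.25 to 0.023, and that of Snhg5 from -0.32 to 0.023. Others were wider: -0.76 to 0.19 and -0.23 to 0.39 for Gas5 probe sets 10351039 and 10351035. That of Snhg17 probe set 10489239 ran from -0.38 to 0.29, and that of Snhg11 probe set 10478066 from -0.019 to 0.49.

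Many snoRNA host genes are known to start with a pyrimidine tract (5' TOP), which ties translation of their RNA to growth signalling. The start windows of the host genes are shown because the host probe sets above are read as 1 class. A tract was searched as a C followed by at least 4 bases that were each C or T, on the transcript strand, within 20 bases of an annotated start, in RefSeq sequence of build GRCm38.p6; the width was set after a first look at exact starts. Of 8 annotated starts of the 6 host genes 4 held one, beside 45.9% of 32851 starts in the table, so the share was near the background. The windows with a tract, in capitals, were these.
Gas5 (chr1:161035146-161035185, plus strand): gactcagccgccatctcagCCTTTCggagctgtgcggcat
Snhg16 (chr11:116671640-116671679, plus strand): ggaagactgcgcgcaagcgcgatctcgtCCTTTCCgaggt
Snhg5 (chr9:88522878-88522917, minus strand): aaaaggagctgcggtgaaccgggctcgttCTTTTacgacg
Snhg17 (chr2:158361503-158361542, minus strand): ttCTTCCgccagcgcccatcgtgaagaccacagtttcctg
The Gas5 tract begins 1 base before the annotated start, whereas that of Snhg17 begins 18 bases before it. No tract by these letters was found in the other Gas5 and Snhg17 windows or in those of Snhg11 and Snhg15. The sequences of the small RNAs themselves were not used here.

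The host class above covers few of the genes in which the small RNAs lie, so each small RNA was also set beside the gene that contains it in the RefSeq annotation. Of 54 small RNA genes 53 lay inside another gene, 38 in protein-coding genes and 15 in long non-coding RNA genes, and Snord118 lay in none. The 53 shared 43 hosting genes, of which 24 had a probe set of their own. Many of these encode ribosomal proteins or translation factors. Where a hosting gene had several probe sets, the brightest stood for it. Probe sets were matched by gene symbol or Entrez identifier. Whether the brightest reads the gene copy that holds the small RNA was not checked. The differences ran from -0.24 to 0.001 over the 5 probe sets of Rpsa and from -0.15 to -0.091 over the 11 of Rpl23a. None of the 24 passed either fit, and the lowest adjusted p by limma over 14953 genes was 0.0633, for Haus6. The hosting genes had a median difference of -0.053 and a range from -0.19 to 0.17, and their median within-group SD was 0.0417, against 0.128 for the small RNAs inside them. Their groups were apart for 9 of 24 (37.5%, beside 28.5% of all probe sets). All of these were lower on the arrays labelled CRE except Srcap (0.17), where 10.9% of all probe sets were apart and lower. The difference was below 0 for 18 of the 24, beside 37.6% of all probe sets. These shares depend on scaling, since the median of all probe sets was 0.047 as deposited and -0.055 after centring.

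In 21 of 30 pairs the small RNA had the larger absolute difference, with a median absolute difference of 0.173 for the small RNAs and 0.0662 for the hosting genes. The wider within-group spread of the small RNAs moved with this, and its part was not tested. The sign was shared in 19 of 30 pairs, and as a description over 30 pairs, which share arrays and some hosting genes, Spearman's rho was 0.0577 and Pearson's r 0.163. The pairs named here were chosen after their values were seen. Rpl23a, host of Snord42a, read 13.18, 13.19 and 13.19 against 13.06, 13.04 and 13.07 (-0.13 ± 0.0421), while Snord42a differed by -0.65. Nop56, which is both the host of Snord57 and a core protein of box C/D complexes, read 13.26, 13.17 and 13.31 against 13.20, 13.23 and 13.24 (-0.024 ± 0.0544), while Snord57 differed by -0.39. Haus6 read 11.23, 11.24 and 11.20 against 11.13, 10.96 and 11.02 (-0.19 ± 0.0583), opposite in sign to its Scarna8. No test of the difference between a small RNA and its host was run.

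**Figure D3:**
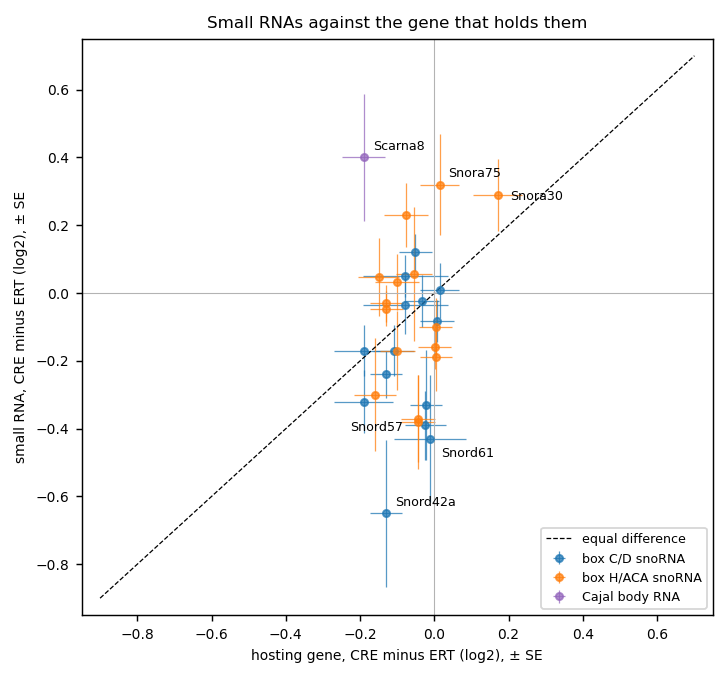
Difference of each small RNA (y axis, log2) against that of the gene that contains it (x axis, log2), over 30 pairs of small RNA and hosting gene. Differences are arrays labelled CRE minus ERT arrays, bars are standard errors, and the dashed line marks equal differences. The hosting genes lie between -0.19 and 0.17, and the small RNAs range from -0.65 (Snord42a) to 0.40 (Scarna8).

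Small RNAs cut from the same gene were alike in sign in 8 of 10 genes that held more than 1 measured, and in 7 of 10 after centring, where the members in Snhg12 and in Ncl differed in sign and those in Rps3a1 did not. In Rpl13a, Snord35a and Snord33 had differences of -0.33 and -0.32, and in Rack1, Snord96a and Snord95 had -0.17 and -0.15. In Rpl23a, Snord42a and Snord42b differed by -0.65 and -0.24, and in Rps3, Snord15a and Snord15b by -0.32 and -0.17. Snora73a and Snora73b of Snhg3 (0.25 and 0.29) and Snora16a and Snora44 of Snhg12 (0.088 and 0.36) were on the higher side, as were Snord82 and Snora75 of the nucleolin gene Ncl (0.0087 and 0.32). Snord49a and Snord49b, both inside 2410006H16Rik, had -0.36 and -0.11. The signs differed in Rps3a1, with -0.035 for Snord73a and 0.05 for Snord73b. Small RNAs in protein-coding genes had a median difference of -0.15 over 41 probe sets, and those in long non-coding RNA genes -0.026 over 15, in which Snord52 was the lowest (-0.51) and Scarna13, inside Snhg10, the highest (0.67).

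The box C/D differences were not spread evenly over the arrays. CRE 2 was the lowest of all 6 arrays for 21 of 32 box C/D probe sets, and for 8317 of 35080 probe sets over the array. ERT 2 was the lowest of the ERT arrays for 22 of the 32, and CRE 2 the lowest of the arrays labelled CRE for 24. Number 2 was thus low in both groups. Over all 35080 probe sets these counts were 13243 and 13802. For box H/ACA RNAs they were 15 and 13 of 22, and for host genes 11 and 6 of 12. The pattern was therefore not particular to box C/D RNAs. As deviations from each probe set's mean, the medians of the box C/D probe sets were 0.17, 0.017 and 0.12 on ERT 1, 2 and 3 and 0.022, -0.22 and -0.034 on CRE 1, 2 and 3. ERT 2, CRE 1 and CRE 3 thus lay close together, and CRE 1 lay above ERT 2, so the groups overlapped. The host gene medians were 0.10, -0.11 and 0.059 against 0.072, -0.038 and -0.044, which overlap between the groups as well. Within a group, the small RNA probe sets spread with a median SD of 0.148 and the host gene probe sets with 0.131, compared with 0.0957 over all probe sets.

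**Figure D4:**
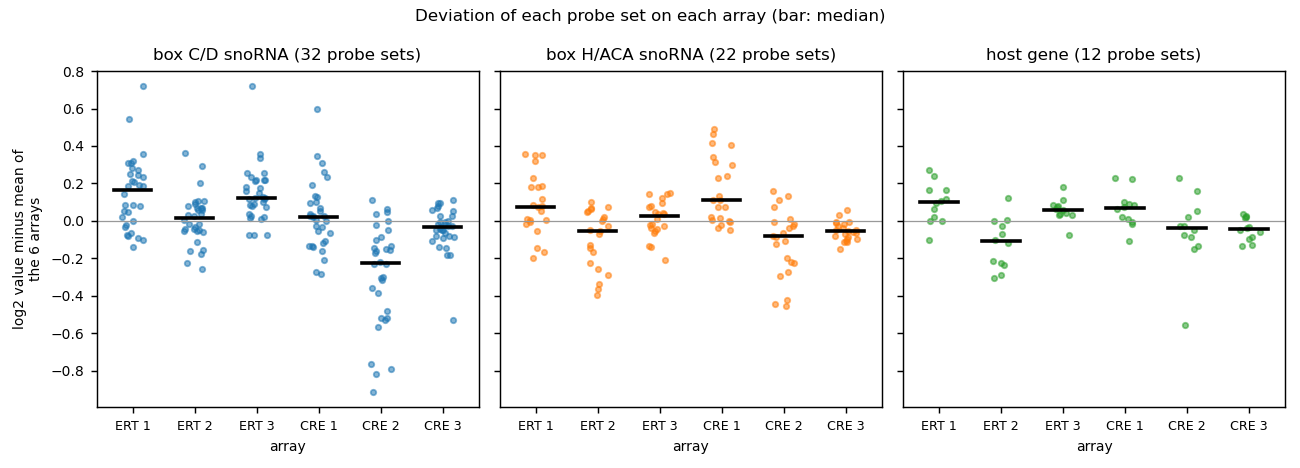
Deviation of each distinct probe set from its mean over the 6 arrays (y axis, log2), by array and by class; points are probe sets and bars are medians. The box C/D median is 0.17 on ERT 1 and -0.22 on CRE 2, and the host gene median runs from -0.11 on ERT 2 to 0.10 on ERT 1.

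The proteins that build and hold small nucleolar RNAs were read from a list of 28 genes, of which 27 were measured. Their median difference was -0.13 with 23 of 27 below 0, beside 0.047 over all probe sets; 0 passed over the whole table, where 14 had an unadjusted p under 0.05 by limma (13 lower and 1 higher, 51.9% beside 19.9% of all probe sets). In the fit of 14953 genes 7 of 27 passed, all lower on the arrays labelled CRE (25.9%, beside 4.13% of genes lower). After centring 16 of 27 passed, all lower (59.3%, beside 18.7% of genes lower). Ruvbl1 and Ruvbl2, paired ATPases of the assembly machinery, had differences of -0.30 ± 0.0595 and -0.27 ± 0.0717 (limma adjusted p = 0.0239 and 0.0444). Ruvbl1 read 11.42, 11.34 and 11.32 on the ERT arrays and 10.98, 11.09 and 11.12 on the arrays labelled CRE. Ruvbl2 read 11.60, 11.60 and 11.56 against 11.21, 11.28 and 11.45. Neither pair of groups overlapped.

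The other 5 that passed sit in different parts of the pathway. Rrp9, a protein of the U3 complex, read 10.77, 10.80 and 10.71 against 10.52, 10.43 and 10.59 (-0.25 ± 0.0598), and Imp3, a partner of U3, read 12.49, 12.38 and 12.53 against 12.22, 12.24 and 12.29 (-0.22 ± 0.0574). Nufip1, an assembly factor, differed by -0.22 ± 0.0553. Nop10, of the box H/ACA core, differed by -0.20 ± 0.0490, and Nop58, of the box C/D core, by -0.19 ± 0.0487. Limma's adjusted p for these 5 lay between 0.0372 and 0.0486 in the fit of 14953 genes, and between 0.164 and 0.182 over the whole table. Fibrillarin (Fbl, -0.093 ± 0.0585) and dyskerin (Dkc1, -0.097 ± 0.0476), the enzymes themselves, did not pass, and Nhp2 of the box H/ACA core had a difference of 0.11 ± 0.0540. Without CRE 2 only Ruvbl1 passed, without CRE 3 all 7 did among 11, and with any of the other 4 arrays left out 0 passed. Of 10 genes of nonsense-mediated decay, the pathway that degrades spliced Gas5 RNA, 7 were measured and 0 passed (median 0.048), with Smg1 the widest apart (0.33 ± 0.101, limma adjusted p = 0.0587).

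**Figure D5:**
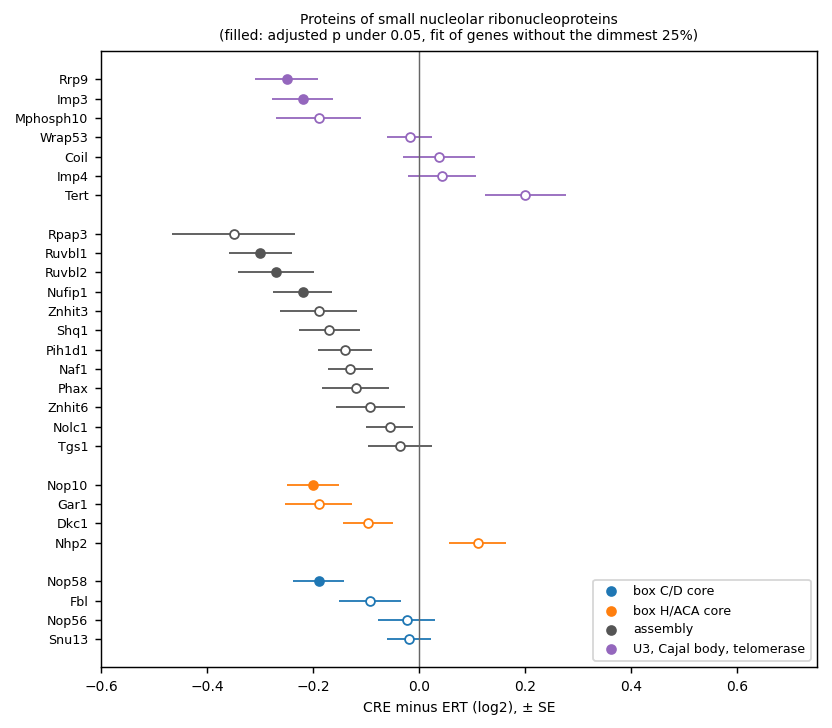
Difference between the arrays labelled CRE and the ERT arrays (x axis, log2; bars are standard errors, 3 arrays per group) for 27 genes of small nucleolar ribonucleoproteins and their assembly, grouped by role. Filled points mark the 7 with a limma adjusted p under 0.05 in the fit of 14953 genes, from -0.30 (Ruvbl1) to -0.19 (Nop58); 23 of 27 points lie left of 0.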

How the data were processed

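Expression was measured on 6 Affymetrix arrays, 3 per group. The deposited values are log2 signals, 1 per probe set and array; the submitters' processing notes list RMA and Partek 6.5 and give no order or settings. The build used for the array is not given in these sources. The signals hold no read depth, and precision is limited by having 3 arrays per group. Probe sets were named through the platform annotation (21789 of 35556 with 1 symbol, 1621 with several, 12146 unnamed); 41 probe sets that name a small RNA or host among several symbols, 24 of them for Snord116, were not used, and 0 of 6 listed brain-restricted imprinted small RNAs had a probe set of their own.

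Rows with identical values entered once (35080). The CRE and ERT arrays were set against each other in limma 3.58.1 under R 4.3.3 (functions lmFit and eBayes, no covariate, two-sided, Benjamini-Hochberg over the table, 2.14 prior degrees of freedom). The code was run on simulated data with independent noise and no shared array effects. Recovery of calls was required there only for changes wider than any member's difference, so it does not show the power at the sizes reported here. No filter was set on dim probe sets; 68 of 69 distinct member probe sets lay above the 25th percentile. The second fit (1 probe set a gene, dimmest 25% of genes, under 7.35, left out) was added after the first counts were seen. Hosting genes are the smallest RefSeq gene (GRCm38.p6) that contains the small RNA; strand was not used, and 3 small RNAs lay in more than 1 gene. One hosting gene is not reported here. All 60 member genes matched RefSeq by Entrez identifier. Over the whole table the deviations of same-numbered arrays correlated at -0.29 to 0.055, so the numbers were not taken as pairs. Number 2 was nonetheless low in both groups for most box C/D and box H/ACA probe sets. Values on every array are given for all host probe sets, members that passed, the 4 brightest of each small RNA class, Snord118 and Snord14e, and other genes named are said to have been chosen afterwards or are list members. The members, lists and tests were chosen with earlier results of these data known. Tables were made with Python 3.11.15 and pandas 2.3.3, figures with matplotlib 3.10.9.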

Additional observations from a re-analysis of the deposited data

How the results depend on the processing

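Background correction and probe summarization were fixed in the deposited values and were not varied. Over the whole table, 146 probe sets passed with the dimmest 25% removed, 376 among named probe sets only, 437 with 1 probe set a gene, 51 after quantile normalization or cyclic loess, 66 after centring, 220 with trend and robust estimation, 50 with array weights and 5 at a threshold of 0.01; with an array left out 3 to 4 passed. In the fit of 14953 genes the 1140 became 994 (quantile), 3020 (centring) and 1169 (cyclic loess), and 116, 194 and 347 without ERT 1, 2 and 3 and 136, 525 and 3042 without CRE 1, 2 and 3. Small RNAs that passed numbered 1 among named probe sets only or with 1 probe set a gene (Scarna13), 6 in the fit of 14953 genes, and in that fit 8 (quantile), 27 (centring, 24 lower), 9 (cyclic loess) and 0 to 16 with an array left out. Host genes that passed numbered 3 after centring, and hosting genes by position 9. Of the ribonucleoprotein genes 1 passed with 1 probe set a gene, 7 in the fit of 14953 genes, and there 4 (quantile), 16 (centring), 5 (cyclic loess) and 0 to 11 with an array left out. Centring moved the median differences to -0.20 (small RNAs), -0.13 (host genes) and -0.13 (box H/ACA).

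The replicate numbers were not taken as pairs: over the whole table correlations of same-numbered arrays ran from -0.29 to 0.055. With the replicate block 0 probe sets passed over the whole table, and in the fit of 14953 genes 147 genes, 2 small RNAs (Snord118 and Snord42a) and 0 ribonucleoprotein genes did.

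Of 943 values of 35 members and genes that the naming rule took, under alternatives, 837 kept direction and side of the threshold, 75 passed it and 31 changed sign; all 31 were near 0 and none passed. Over all 69 distinct members 11 changed sign after centring, 2 after quantile normalization and 2 after cyclic loess. Among the 35, those after centring were Gas5 probe sets 10351035 (-0.023) and 10351037 (-0.077), Snhg17 probe set 10489235 (-0.054), Snord104 (-0.037) and Snora52 (-0.069). Array weights gave -0.0084 for Snhg17 probe set 10489235, and Snhg17 probe set 10489237 gave 0.034 (quantile) and 0.032 (cyclic loess). Other probe sets changed sign in some of the fits with an array left out, and their ranges here are over all such fits. The differences ran from -0.015 to 0.18 (Gas5 10351035), -0.029 to 0.074 (Gas5 10351037), -0.053 to 0.12 (Snhg17 10489235), -0.034 to 0.03 (Snhg17 10489237), -0.20 to 0.066 (Snhg17 10489239, 0.0005 without ERT 3), -0.25 to 0.029 (Snord49b), -0.083 to 0.033 (Snord53, 0.022 without ERT 3) and -0.034 to 0.075 (Snora52, -0.025 without CRE 1). The cause was not tested.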
